A study of Mus musculus with 48 samples.

Results

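The 10 genes described here encode the integrin subunits through which the cells of a vessel wall hold on to the matrix around them. They are the alpha subunits Itga1, Itga2, Itga5, Itga7, Itga8, Itga11 and Itgav and the beta subunits Itgb1, Itgb3 and Itgb5. They were chosen by name and read from the count table, where they are 10 of 18782 genes. All 10 passed the filter on low counts that left 14431 genes for testing. Thoracic aortas of 48 wild-type C57BL/6J mice were sequenced, with 1 library per mouse. All mice were 3 weeks old at the start and were followed for 28 days. The control groups MaCon (10 males) and FeCon (10 females) drank plain water. All other mice drank water with 0.4% β-aminopropionitrile (BAPN) over these 28 days. BAPN inhibits lysyl oxidase, whose cross-links strengthen collagen and elastin. Treated mice without a visible lesion formed MaNonAD (4 males) and FeNonAD (8 females), and those with a dissection or aneurysm formed MaAAD (7 males) and FeAAD (9 females). NonAD and AAD therefore differ in outcome and not in treatment, and mice that died of rupture before the endpoint were not sampled. The segments were whole pieces of the aorta, in which fat markers were also found. Fewer cells of a type and less RNA per cell therefore cannot be told apart.

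An integrin is a pair of 1 alpha and 1 beta subunit that spans the cell membrane, binds a matrix protein outside and is tied to actin inside through talin, kindlin, vinculin and their partners. The alpha subunit largely sets the ligand. Paired with Itgb1, Itga1, Itga2 and Itga11 make collagen receptors, Itga7 makes a laminin receptor, Itga5 makes the main fibronectin receptor, and Itga8 makes a receptor for nephronectin, fibronectin and other proteins with an Arg-Gly-Asp (RGD) motif. Itgav pairs with Itgb1, Itgb3 or Itgb5 and binds vitronectin, osteopontin and latent TGFβ, also through RGD. Itga8, Itga7 and Itga1 are typical of smooth muscle, Itga11 of fibroblasts and Itga2 of platelets as well as some wall cells, and Itgb3 is also the beta subunit of the platelet fibrinogen receptor.

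Library totals ranged from 13548003 to 17281262 counts. Levels are given as CPM, counts scaled to the TMM-normalized library size, which compare the same gene between mice. Differences are log2 fold changes with an approximate standard error (SE), and the adjusted p is from edgeR's quasi-likelihood test over the 14431 genes with Benjamini-Hochberg adjustment. A gene is said to have risen or fallen where the adjusted p was under 0.05, and a differentially expressed gene (DEG) moreover changed by 1 or more on the log2 scale. The summed level of 10 smooth muscle markers was 31534 to 69349 CPM in MaCon and 34405 to 59822 CPM in FeCon, and of 10 endothelial markers 755 to 1159 and 775 to 1363 CPM, so markers of both wall cell types were present. Summed over 10 brown fat markers, the level was 465 to 2944 CPM in MaCon and 716 to 2545 CPM in FeCon. MaAAD1 had the highest sum of fat markers of all libraries, 4071 CPM, where the MaAAD median was 633 CPM. The part of fat RNA in the levels of the members was not tested. A few AAD libraries stood apart: FeAAD5, MaAAD7 and FeAAD9 had the highest summed platelet markers (721, 402 and 188 CPM, against at most 47.1 CPM in any control), and MaAAD1 and FeAAD5 had the lowest smooth muscle markers (13450.4 and 15447 CPM). Tests of the members in AAD against controls were repeated without them, while sums, shares, ratios and lists include them.

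The genes of the members lie on 8 mouse chromosomes. By the GENCODE M21 annotation of GRCm38, Itga2 (chr13:114833081-114932100) and Itga1 (chr13:114953096-115101964) are neighbours on the minus strand, 20995 bases apart with 1 annotated gene between them. Itga11 lies at chr9:62677826-62783982 on the plus strand, Itga8 at chr2:12106632-12301922 on the minus strand and Itgb1 at chr8:128685654-128733200 on the plus strand. The 250 bases before the start of 4 members are printed because these are the collagen receptor subunits that rose most, the most abundant alpha subunit, and the beta subunit that they share. They are from RefSeq (GRCm38.p6), which matched 8 of the 10 members. RefSeq starts can differ from those of GENCODE, and the window of Itga11 runs past the GENCODE start given above. Capitals mark a GC box (GGGCGG) or a TEAD motif (CATTCC) on either strand, and the motifs in this search do not overlap there.
Itga2, chr13:114932101-114932350, minus strand: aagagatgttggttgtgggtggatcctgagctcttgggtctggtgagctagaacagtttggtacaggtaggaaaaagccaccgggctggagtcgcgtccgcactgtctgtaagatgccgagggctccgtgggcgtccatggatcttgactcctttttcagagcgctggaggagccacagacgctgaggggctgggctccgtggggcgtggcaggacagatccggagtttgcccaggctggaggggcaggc
Itga11, chr9:62677605-62677854, plus strand: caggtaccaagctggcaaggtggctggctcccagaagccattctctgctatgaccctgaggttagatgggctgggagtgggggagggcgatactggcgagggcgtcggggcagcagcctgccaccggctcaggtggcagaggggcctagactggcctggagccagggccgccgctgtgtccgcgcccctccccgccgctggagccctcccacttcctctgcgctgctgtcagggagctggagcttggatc
Itga8, chr2:12301945-12302194, minus strand: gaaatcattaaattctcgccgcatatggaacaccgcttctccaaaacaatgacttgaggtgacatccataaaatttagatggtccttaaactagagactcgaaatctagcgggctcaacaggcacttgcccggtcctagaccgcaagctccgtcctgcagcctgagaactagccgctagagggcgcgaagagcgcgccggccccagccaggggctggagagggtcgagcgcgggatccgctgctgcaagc
Itgb1, chr8:128685404-128685653, plus strand: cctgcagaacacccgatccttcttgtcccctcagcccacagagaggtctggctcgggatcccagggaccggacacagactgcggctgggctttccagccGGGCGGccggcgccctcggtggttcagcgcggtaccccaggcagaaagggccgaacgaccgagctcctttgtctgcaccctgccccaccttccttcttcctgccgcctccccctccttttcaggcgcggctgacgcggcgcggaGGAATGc

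The sequences of Itga2, Itga11 and Itga8 held none of the 7 motifs searched for. Of the 8 members, 3 (Itga5, Itgb1 and Itgb5) held a GC box, which 32.7% of 32851 promoter entries hold in the same window, and Itgb1 alone held a TEAD motif, which 12.6% hold. None of the 8 held an AP-1 motif (TGANTCA, 6.75% of entries), a RUNX motif (TGTGGT, 14.0%), an ETS motif (CCGGAA, 12.0%), a SMAD motif (GTCTAGAC, 0.167%) or a CArG box (1.47%), on either strand. GC content ran from 55.6% in Itga5 to 68.4% in Itga11, against a median of 52.4% over all entries.

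Per length, the healthy aorta held mostly Itgb1, Itga8, Itgb5, Itga5 and Itga7. On the scale of CPM per kilobase of the longest transcript, the median level in FeCon was 509 for Itgb1, 427 for Itga8, 277 for Itgb5, 269.8 for Itga5, 96.8 for Itga7, 33.7 for Itgb3, 12.5 for Itgav, 4.00 for Itga1, 2.64 for Itga11 and 0.123 for Itga2. MaCon had the same order. Neighbours among the first 4 had overlapping ranges over the libraries in both control groups. Itga5 also overlapped Itga7 in MaCon, and Itga1 overlapped Itga11 in FeCon. All other neighbours in the order of the controls were separate. The order by median differed in some treated groups. Itga11 stood above Itga1 in FeAAD (9.52 and 3.54), MaAAD (5.04 and 2.97) and MaNonAD (3.54 and 3.21), and Itgb5 stood above Itga8 in FeAAD (281.2 and 278.1), all with overlapping ranges. Itga2 stayed the lowest in all 6 groups, at a median of 0.983 in FeAAD and 1.13 in MaAAD.

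**Figure D1:**
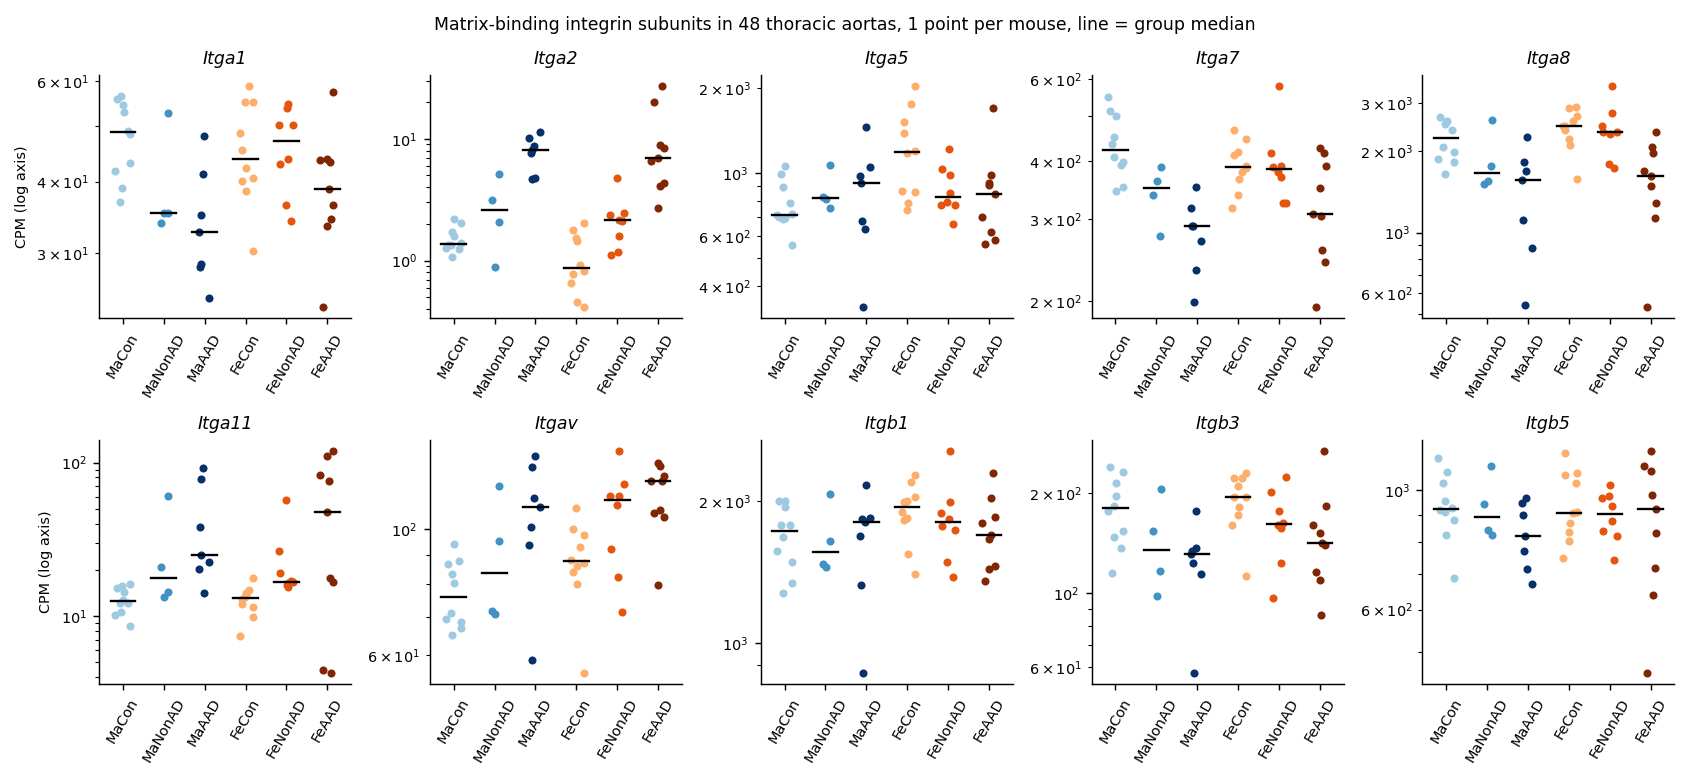
Level of each of the 10 members in CPM (log axis) by group, with 1 point per mouse and a line at the group median. Itga2 in every AAD mouse is above every control of its sex, Itga11 runs from 4.29 to 119 CPM within FeAAD, and Itgb1 and Itgb5 overlap in all groups.

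Itga2, the alpha subunit of a collagen receptor that platelets carry as well as some wall cells, rose in AAD in both sexes from a very low level. It was 1.07 to 2.18 CPM in MaCon (median 1.37), and 4.64 to 11.2 CPM in MaAAD (median 8.06). In FeCon it was 0.415 to 2.05 CPM (median 0.872), and in FeAAD 2.73 to 27.2 CPM (median 6.99). All AAD libraries of each sex lay above all controls of that sex. The log2 fold change was 2.37 ± 0.36 in males (5.16-fold, adjusted p = 9.8e-07) and 3.19 ± 0.36 in females (9.11-fold, adjusted p = 1.7e-09). The counts behind these levels were small, from 6 in FeCon4 to 451 in FeAAD9.

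The 3 libraries with the most platelet marker RNA were also the highest in Itga2 of their sex, with 27.2 CPM in FeAAD9, 20.2 CPM in FeAAD5 and 11.2 CPM in MaAAD7. Without them the rise was 2.46 ± 0.30 in FeAAD (adjusted p = 2.0e-08) and 2.26 ± 0.30 in MaAAD (adjusted p = 9.8e-08). Of 8 platelet and megakaryocyte markers tested, 6 rose in FeAAD and 3 in MaAAD. Over 48 libraries Gp6 was at 0 in 29 and Treml1 in 10. The summed platelet markers ranged from 36.8 to 721 CPM in FeAAD, from 36.7 to 402 CPM in MaAAD, and from 20.8 to 47.1 CPM over both control groups. FeAAD5 and MaAAD7 also had the highest summed macrophage markers of their groups, 5685 and 3691 CPM. The part of platelet and macrophage RNA in the rise of Itga2 that remained was not tested.

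In NonAD, Itga2 lay between the controls and AAD by median in both sexes. It was 1.12 to 4.78 CPM in FeNonAD (median 2.15), and 5 of 8 libraries were above the highest FeCon library. The rise was 1.04 ± 0.36 (2.05-fold, adjusted p = 0.047), and it was the one member called in that comparison. This call was a narrow one: without FeNonAD8, the highest library, the value was 0.78 and the adjusted p 0.16. In MaNonAD the 4 libraries had 5.09, 0.891, 3.15 and 2.07 CPM, of which 2 were above and 1 was below all MaCon libraries. The difference was 0.88 ± 0.43 (adjusted p = 0.40). From FeNonAD to FeAAD, Itga2 rose by 2.15 ± 0.36 (adjusted p = 1.0e-04), and by 1.42 ± 0.30 without FeAAD5, FeAAD9 and MaAAD7 (adjusted p = 0.0017). From MaNonAD to MaAAD the difference was 1.49 ± 0.47 (adjusted p = 0.071), and it passed without MaNonAD1 (1.95, adjusted p = 0.035), without MaAAD1 (1.57, 0.032) and without FeAAD5 (1.49, 0.040), which enters through the shared estimate of the spread.

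Itga11, the fibroblast collagen receptor subunit, also rose in AAD in both sexes, but very unevenly. In MaCon it was 8.64 to 16.3 CPM (median 12.5) and in FeCon 7.37 to 17.8 CPM (median 13.1). The 9 FeAAD libraries had 83.3, 17.8, 16.6, 76.2, 4.44, 119, 111, 47.3 and 4.29 CPM. That is, 5 of them were above the highest FeCon library, 2 were within the range of FeCon, and FeAAD5 and FeAAD9 were below the lowest. MaAAD ranged from 14.1 to 91.7 CPM (median 25.1), and 6 of 7 libraries were above the highest MaCon library. The log2 fold change was 2.07 ± 0.42 in FeAAD (4.18-fold, adjusted p = 8.8e-05) and 1.69 ± 0.44 in MaAAD (3.22-fold, adjusted p = 0.0020).

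The low FeAAD libraries were low in fibroblast RNA as well. Summed over 10 fibroblast markers, FeAAD9 had 1196 CPM and FeAAD5 had 2522 CPM, whereas the FeCon libraries had 3915 to 5951 CPM. Without the 3 libraries highest in platelet markers, to which both belong, the rise of Itga11 was 2.40 ± 0.36 in FeAAD (adjusted p = 8.7e-07) and 1.80 ± 0.37 in MaAAD (adjusted p = 1.3e-04). Among the fibroblast markers themselves 1 rose and 5 fell in FeAAD, and 2 rose and 2 fell in MaAAD, of 10 in each. Lumican (Lum) rose in both sexes, by 1.11 ± 0.21 and 1.61 ± 0.22, while Clec3b and Scara5 fell in both. The sum of the fibroblast markers in MaAAD, 3373 to 5681 CPM, overlapped that in MaCon, 3898 to 5480 CPM.

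In NonAD, 1 library of each sex stood out for Itga11. FeNonAD ranged from 15.4 to 57.2 CPM (median 16.7), with 57.2 CPM in FeNonAD8 and 26.5 CPM in the next library. The MaNonAD libraries had 60.8, 13.4, 20.8 and 14.4 CPM. Most of the remaining libraries were near the upper end of the controls. FeNonAD differed from FeCon by 0.85 ± 0.43 (adjusted p = 0.18) and MaNonAD from MaCon by 1.09 ± 0.51 (adjusted p = 0.37), and neither passed. The values were 0.51 without FeNonAD8 and 0.33 without MaNonAD1. FeAAD was above FeNonAD by 1.21 ± 0.44 (adjusted p = 0.047), a call that was lost when any of 26 libraries was left out. The lowest value was 0.97, without FeAAD6 (adjusted p = 0.12).

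Itga1, the collagen receptor subunit of smooth muscle, did not rise with its neighbour Itga2. It was 36.8 to 56.5 CPM in MaCon (median 48.8) and 25.0 to 48.1 CPM in MaAAD (median 32.6), and it fell by 0.49 ± 0.14 (adjusted p = 0.0061). In FeCon it was 30.2 to 59.0 CPM (median 43.9) and in FeAAD 24.1 to 57.4 CPM (median 38.8), with a difference of -0.20 ± 0.13 (adjusted p = 0.21). The female groups overlapped. Per 1000 CPM of the smooth muscle markers, which fell in AAD, the median of Itga1 was 1.12 CPM in MaCon and 1.48 CPM in MaAAD. In females it was 1.02 CPM in FeCon and 1.67 CPM in FeAAD, and the ranges overlapped in both sexes. Within libraries, the log2 ratio of Itga2 to Itga1 counts was -5.72 to -4.41 in MaCon and -3.33 to -1.15 in MaAAD, and -7.06 to -4.31 in FeCon and -3.62 to -0.26 in FeAAD, so the ranges were apart in both sexes. In NonAD, Itga1 differed from the controls by 0.01 ± 0.14 in females and -0.28 ± 0.17 in males, and neither passed.

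Itga7, the laminin receptor subunit of muscle, fell in MaAAD. Its level was 346 to 549.98 CPM in MaCon (median 423) and 199.8 to 353 CPM in MaAAD (median 289.98). Of the 7 MaAAD libraries, 6 were below the lowest MaCon library. The fall was 0.64 ± 0.13 on the log2 scale (adjusted p = 1.5e-04). In FeAAD Itga7 was 194 to 426 CPM (median 308) against 318 to 467 CPM in FeCon (median 389). That difference was -0.29 ± 0.12 with an adjusted p of 0.0504, just outside the threshold, and it was 0.042 by DESeq2. It was 0.074 without FeAAD5, FeAAD9 and MaAAD7 (-0.27) and 0.12 without FeAAD5 and MaAAD1 (-0.22), and FeAAD5, its lowest library, is in both sets. Of the 9 libraries, 5 were below the lowest control. Itga7 was also set against the smooth muscle markers described with Itga8. Per 1000 CPM of them, it was 6.89 to 10.2 CPM in FeCon and 10.5 to 17.2 CPM in FeAAD. In males it was 6.29 to 11.2 CPM in MaCon and 9.79 to 16.1 CPM in MaAAD, and these ranges overlapped. The markers themselves fell in AAD, which raises this ratio for any gene that fell less. The share of all genes whose groups separate on this scale was not counted. Summed heart muscle markers were 65.1 to 598 CPM in FeCon and 43.3 to 128 CPM in FeAAD. In males they were 78.4 to 285 CPM in MaCon and 40.7 to 421 CPM in MaAAD. Their part in the level of Itga7 was not tested. In NonAD the differences of Itga7 were -0.35 ± 0.16 in males (adjusted p = 0.36) and 0.02 ± 0.13 in females (adjusted p = 0.94).

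Itga8, the most abundant alpha member, fell in AAD in both sexes. It was 1642 to 2675 CPM in MaCon (median 2231) and 543 to 2252 CPM in MaAAD (median 1567), with 4 of 7 libraries below the lowest control. It was 1572 to 2911 CPM in FeCon (median 2482) and 530.2 to 2349.9 CPM in FeAAD (median 1617), again with 4 libraries below the lowest control. The groups overlapped in both sexes. Itga8 fell by 0.65 ± 0.21 in males (adjusted p = 0.013) and by 0.63 ± 0.19 in females (adjusted p = 0.0070). FeNonAD differed from FeCon by -0.01 ± 0.20, and FeAAD was below FeNonAD by a log2 difference of -0.62 ± 0.20 (adjusted p = 0.028). That call was lost without any 1 of FeNonAD2, FeNonAD4, FeAAD5, FeAAD6 or FeAAD9 (adjusted p of 0.051 to 0.081), and without FeAAD5, FeAAD9 and MaAAD7 together (-0.44, adjusted p = 0.15). In MaNonAD the difference from MaCon was -0.25 ± 0.25 (adjusted p = 0.77).

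The lowest Itga8 levels, 530.2 CPM in FeAAD5 and 543 CPM in MaAAD1, were in the libraries lowest in smooth muscle markers. All 10 smooth muscle markers fell in AAD in both sexes, with a median log2 fold change of -1.16 in males and -1.06 in females, where the median over all tested genes was -0.03 and 0.00. Their sum was 13450.4 to 32479 CPM in MaAAD and 15447 to 35484 CPM in FeAAD. Per 1000 CPM of these markers, Itga8 was 28.2 to 66.9 CPM in MaCon (median 51.8) and 39.4 to 72.9 CPM in MaAAD (median 61.7). In females it was 30.4 to 72.1 CPM in FeCon (median 53.0) and 34.3 to 88.6 CPM in FeAAD (median 66.9). The ranges overlapped on this scale, with the higher medians in AAD. Without FeAAD5 and MaAAD1, Itga8 fell by 0.52 ± 0.15 in FeAAD (adjusted p = 0.0063) and by 0.51 ± 0.17 in MaAAD (adjusted p = 0.014).

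**Figure D2:**
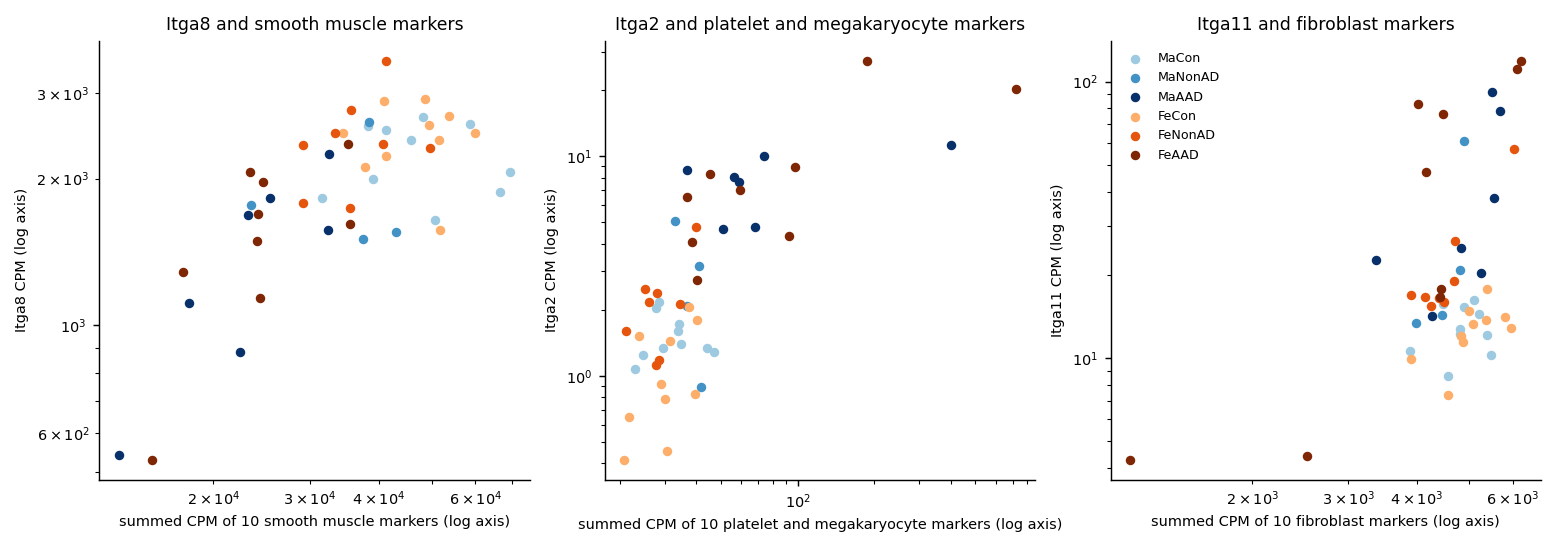
Level of Itga8, Itga2 and Itga11 in each library against the summed CPM of 10 smooth muscle, platelet and megakaryocyte, or fibroblast markers, both on log axes and coloured by group. The 2 libraries lowest in smooth muscle markers are lowest in Itga8, the 3 highest in platelet markers include the highest Itga2 of each sex, and the 2 lowest in fibroblast markers are lowest in Itga11.

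Itga5, the fibronectin receptor subunit, was the member with a sex difference in healthy aorta. FeCon libraries had 739 to 2043 CPM (median 1191) and MaCon libraries 559 to 1063 CPM (median 713). The groups overlapped, and FeCon was the more variable. MaCon was below FeCon by a log2 difference of -0.66 ± 0.20 (1.58-fold, adjusted p = 0.020). This was 1 of 10 members, all others not passing, where 7.90% of all genes were lower in MaCon. None of the 10 was a DEG there, as 1.51% of genes were.

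In AAD the female level was 561 to 1704 CPM (median 842) and the male level 336 to 1455 CPM (median 926). Itga5 fell by 0.50 ± 0.20 in FeAAD (adjusted p = 0.039), and in MaAAD the difference was 0.15 ± 0.21 (adjusted p = 0.62). The call in females was lost without any 1 of FeCon1, FeCon5, FeCon7, FeCon9, FeAAD1, FeAAD3, FeAAD4, FeAAD5 or FeAAD6, with adjusted p-values of 0.051 to 0.11. Without FeAAD5, FeAAD9 and MaAAD7 the value was -0.63 (adjusted p = 0.011). In FeNonAD the difference was -0.47 ± 0.21 (adjusted p = 0.12). The test of the difference between the sexes in the AAD response gave 0.65 ± 0.29 (male minus female) with an adjusted p of 0.26. Itga5 was the only member with an unadjusted p under 0.05 in any of the 3 tests of this kind.

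Itgav, the RGD-binding partner of all 3 beta members, rose slightly in AAD in both sexes. It was 65.1 to 94.0 CPM in MaCon (median 75.9) and 58.8 to 135 CPM in MaAAD (median 109.5), with 5 of 7 libraries above the highest control and MaAAD1 below the lowest. In females it was 55.9 to 109 CPM in FeCon (median 87.9) and 79.9 to 131 CPM in FeAAD (median 122), with 5 of 9 libraries above the highest control. The groups overlapped. The log2 fold change was 0.45 ± 0.13 in males (adjusted p = 0.0065) and 0.37 ± 0.12 in females (adjusted p = 0.013). In NonAD it was 0.21 ± 0.16 (adjusted p = 0.66) for MaNonAD and 0.26 ± 0.13 (adjusted p = 0.17) for FeNonAD, and 5 of 8 FeNonAD libraries were above the highest FeCon library.

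Of the beta subunits, Itgb1 and Itgb5 passed in none of the 9 pairwise comparisons. Itgb1, the partner of most alpha subunits, was 1276 to 2001 CPM in MaCon and 866 to 2165 CPM in MaAAD, with a difference of -0.03 ± 0.14 (adjusted p = 0.88). In females it was 1399 to 2270.5 CPM in FeCon and 1351 to 2289 CPM in FeAAD, with a difference of -0.14 ± 0.13 (adjusted p = 0.40). Itgb5, an Itgav partner, differed by -0.18 ± 0.13 in MaAAD (adjusted p = 0.29) and by -0.10 ± 0.12 in FeAAD (adjusted p = 0.53). In both sexes the AAD range of these genes overlapped that of the controls.

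Itgb3, the other Itgav partner, fell in MaAAD. It was 115 to 241 CPM in MaCon (median 180.5) and 57.7 to 176 CPM in MaAAD (median 132), and the groups overlapped. The fall was 0.53 ± 0.19 (adjusted p = 0.029). The call was lost without any 1 of MaCon3, MaCon4, MaCon9, MaAAD1 or MaAAD7, with adjusted p-values of 0.051 to 0.099. In FeAAD Itgb3 was 86.0 to 268 CPM (median 141) against 112 to 229.6 CPM in FeCon (median 195), a difference of -0.34 ± 0.18 (adjusted p = 0.12). The highest FeAAD library was FeAAD9, 1 of the 3 highest in platelet markers, and without FeAAD9 the difference was -0.48 ± 0.17 (adjusted p = 0.021). Per 1000 CPM of the smooth muscle markers, which fell in AAD, the median of Itgb3 was 3.91 CPM in MaCon and 5.10 CPM in MaAAD. In females it was 4.30 CPM in FeCon and 6.31 CPM in FeAAD, and the ranges overlapped in both sexes.

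**Figure D3:**
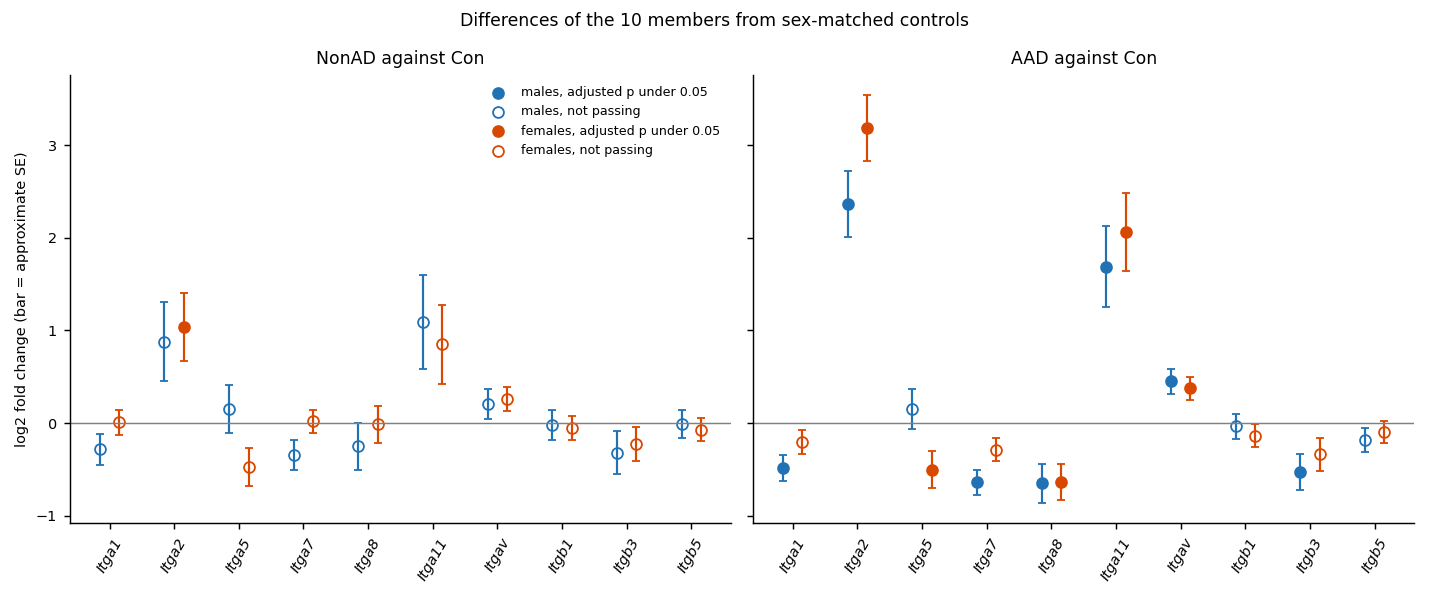
Log2 fold change of each member against the controls of the same sex, for NonAD (left) and AAD (right), with bars of 1 approximate SE and filled points where the adjusted p was under 0.05. Itga2 and Itga11 have the largest differences in AAD, and Itgb1 and Itgb5 lie near 0.

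Counted over the 10 members, 3 rose and 2 fell in FeAAD against FeCon, where 23.8% of all genes rose and 20.6% fell. In MaAAD against MaCon 3 rose and 4 fell, where 18.9% rose and 16.1% fell. The 3 that rose were Itga2, Itga11 and Itgav in both sexes. The FeAAD and MaAAD comparisons use separate control groups. Itga2 and Itga11 were DEGs in both, and DEGs made up 12.7% and 11.4% of all genes. Itga2 was the one member whose AAD and control libraries did not overlap, as for 3.63% of genes that were higher in FeAAD and 6.14% in MaAAD. The median log2 fold change over the members was -0.17 in females and -0.11 in males. Between treated mice, 2 rose and 1 fell (Itga8) from FeNonAD to FeAAD, where 13.2% of genes rose and 5.00% fell.

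In FeNonAD against FeCon 1 of 10 members rose and 0 fell, where 6.87% of genes rose and 7.66% fell. No member passed in MaNonAD against MaCon, where 0.624% of genes were called by edgeR. There 3 members (Itga2, Itga7 and Itga11) had an unadjusted p under 0.05, and DESeq2 called 0. No member passed in MaAAD against MaNonAD either, where 0.409% of genes were called. There 1 member had an unadjusted p under 0.05, and DESeq2 called that 1, Itga2. In MaNonAD against FeNonAD and in MaAAD against FeAAD edgeR and DESeq2 called 0 members and 0 had an unadjusted p under 0.05, and 0.0624% and 0.0901% of genes were called.

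The differences between the sexes in the response were tested for each member as well. Of the 30 tests, 0 passed by edgeR or DESeq2 and 1 had an unadjusted p under 0.05, which was that of Itga5 in the AAD response. For that response 1.34% of all genes were called, for the NonAD response 0.416%, and for the step from NonAD to AAD 0. Itga7 differed by -0.35 ± 0.18 and Itga2 by -0.82 ± 0.50 (male minus female) in the AAD response, with adjusted p-values of 0.34 and 0.44. For Itga2 the value was -0.20 without FeAAD5, FeAAD9 and MaAAD7 (adjusted p = 0.87) and -0.53 without FeAAD5 and MaAAD1 (adjusted p = 0.57). A difference that passed in 1 sex and not in the other, as for Itga1, Itga5, Itga7 and Itgb3, was thus not shown to differ between them.

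The mix of the alpha subunits shifted only in part. Each alpha member was taken as a share of the 7 summed, per kilobase of the longest transcript. Itga8 made up 55.5% ± 3.77 (SD, n = 10) in MaCon and 44.3% ± 8.87 (SD, n = 7) in MaAAD, and 51.7% ± 6.22 (SD, n = 10) in FeCon and 46.0% ± 10.6 (SD, n = 9) in FeAAD. Itga5, with the same n, made up 25.9% ± 3.88 in MaCon and 36.3% ± 8.35 in MaAAD, and 33.6% ± 7.18 in FeCon and 34.2% ± 9.69 in FeAAD. The ranges of both overlapped between AAD and controls. Itga7 took 12.3% to 16.0% on average in every group.

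Of the 4 minor alpha members, Itgav, Itga11 and Itga2 had higher median shares in AAD than in controls of both sexes, while that of Itga1 was 0.644% in MaCon and 0.527% in MaAAD, and 0.526% in FeCon and 0.604% in FeAAD. Itgav had a median of 1.61% in MaCon and 3.02% in MaAAD, and of 1.49% in FeCon and 2.80% in FeAAD. Its ranges were apart in males, at 1.43% to 1.76% in MaCon and 2.25% to 3.38% in MaAAD, and overlapped in females. Itga11 had a median of 0.348% in MaCon and 0.946% in MaAAD, where it ranged from 0.342% to 6.38%. In females its median was 0.324% in FeCon and 1.54% in FeAAD, with a range of 0.122% to 5.20% in FeAAD. The share of Itga2 was 0.0196% to 0.0492% in MaCon and 0.0808% to 0.33% in MaAAD, and 0.00646% to 0.0281% in FeCon and 0.0621% to 0.986% in FeAAD, so that these ranges were apart. All 4 remained a small part of the pool. Summed per length, the 6 alpha members that pair mainly with Itgb1 stood at 1.44 to 1.71 times the Itgb1 level in MaCon and 0.962 to 1.43 times in MaAAD, and at 1.42 to 1.93 times in FeCon and 0.77 to 1.61 times in FeAAD. In males these ranges did not overlap, and in females they did. The lowest ratios were those of MaAAD7 and FeAAD5.

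**Figure D4:**
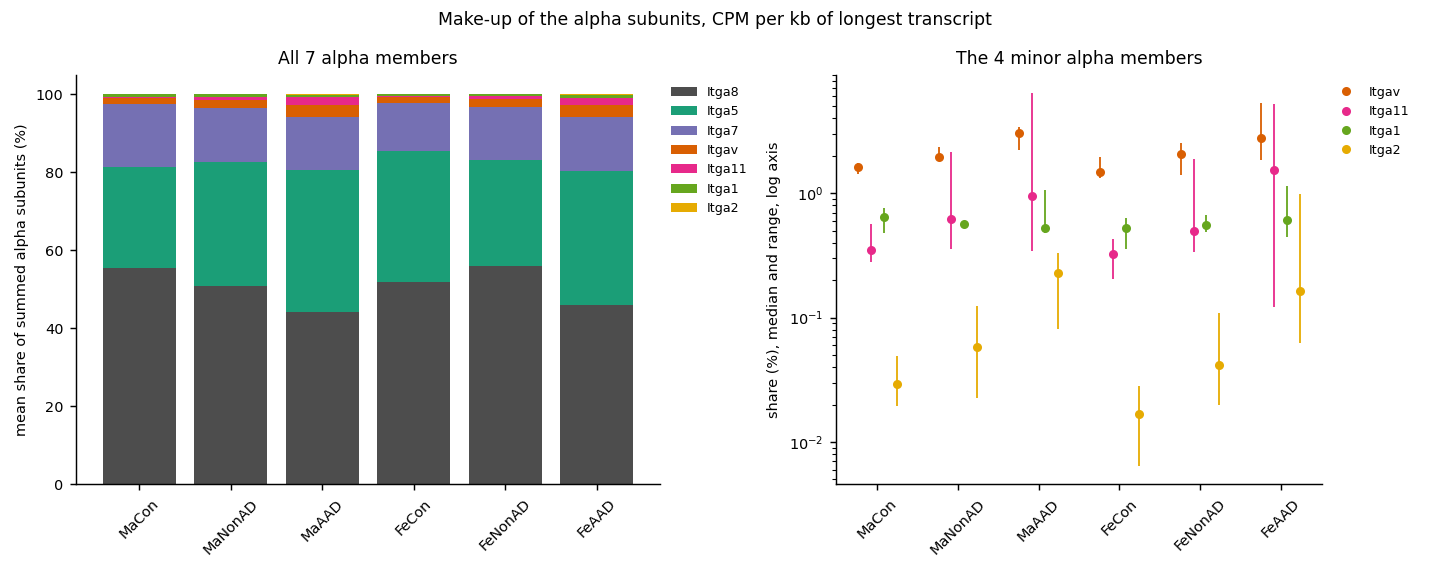
Share of each alpha member in the 7 alpha members summed per kilobase, as group means stacked to 100% (left) and, for the 4 minor members, as medians with the range over libraries on a log axis (right). Itga8, Itga5 and Itga7 make up most of every group, and Itga2 has a higher median share in AAD than in the controls of either sex.

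For each member the other genes that varied most like it were listed, from the deviations of log2(CPM + 1) from the 6 group means over 48 libraries. The libraries are of the same tissue and differed in the summed levels of cell type markers, so these correlations are descriptions. Itga8 followed dystrophin (Dmd, Pearson r = 0.97) and Cped1 (0.97), and Itga11 followed Cpxm2 (0.95) and fibromodulin (Fmod, 0.91), a collagen-binding proteoglycan. Itgb1 followed caldesmon (Cald1, 0.89) of the contractile apparatus and periostin (Postn, 0.87), a matrix protein. Itgb5 followed the collagen prolyl hydroxylase P3h3 (0.94) and Scarf2 (0.90).

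Itgav followed Tmem30a (r = 0.92) and Tmed7 (0.91), both of membrane traffic, and Itga7 followed Slc20a2 (0.87) and Arhgef10l (0.86). Itga2 followed lamin B1 (Lmnb1, 0.83) and osteopontin (Spp1, 0.82). Itga1 followed Ston1 (0.84) and Pdgfd (0.84), Itga5 followed transglutaminase 2 (Tgm2, 0.82) and Nacc1 (0.82), and Itgb3 followed Rassf3 (0.78). Among the members, the highest were Itgav with Itgb1 (0.77), Itga8 with Itgb1 (0.74), Itga1 with Itga8 (0.697) and Itga11 with Itgb5 (0.68).

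The ligands of these receptors were read from lists by name. Over all genes, 23.8% rose and 20.6% fell in FeAAD, and 18.9% rose and 16.1% fell in MaAAD. These shares are the background for every count of a list in AAD. Of 11 collagen genes, 7 rose and 0 fell in AAD in each sex, with a median log2 fold change of 0.77 in females and 0.71 in males. Col8a1, a short-chain collagen of vessels, rose by 4.34 ± 0.58 in females and 4.11 ± 0.59 in males, and its level went from 7.30 to 22.5 CPM in FeCon to 31.5 to 726 CPM in FeAAD. The fibrillar Col1a1 rose by 1.28 ± 0.16 and 1.14 ± 0.17, and Col5a2 by 1.09 ± 0.12 and 1.10 ± 0.13. In FeNonAD 6 of the 11 already passed as risen (median 0.46), and in MaNonAD 1. Of all genes, 6.87% rose in FeNonAD, and 0.624% were called in either direction in MaNonAD.

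Of 9 laminin chains, the ligands of Itga7, 3 rose and 4 fell in FeAAD, and 3 rose and 3 fell in MaAAD. Lamb1 rose by 0.87 ± 0.16 in females and 0.52 ± 0.17 in males. Lamc3 fell by 1.22 ± 0.25 and 0.94 ± 0.27, Lamb2 by 0.53 ± 0.15 and 0.49 ± 0.16, and Lama4, a chain of vessel basement membranes, by 0.41 ± 0.11 and 0.53 ± 0.12. The chains thus did not move in 1 direction.

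Of 18 genes for RGD ligands, 8 rose and 2 fell in AAD in each sex, with a median of 0.40 in females and 0.56 in males. Osteopontin (Spp1) rose by 8.27 ± 0.89 and 8.97 ± 0.93, from 1.16 to 4.62 CPM in FeCon to 68.1 to 4120 CPM in FeAAD, and it is also a product of macrophages. Thrombospondin 1 (Thbs1) rose by 3.62 ± 0.39 and 3.32 ± 0.39, and tenascin C (Tnc) by 2.37 ± 0.24 and 1.89 ± 0.25. Nephronectin (Npnt), the high-affinity ligand of the Itga8 receptor, fell by 0.62 ± 0.18 and 0.64 ± 0.19, beside falls of 0.63 and 0.65 in Itga8.

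Inside the cell, more adhesion complex genes fell than rose. Of 38 tested, 5 rose and 23 fell in FeAAD (median -0.41), and 4 rose and 20 fell in MaAAD (median -0.40). Lims2, which binds integrin-linked kinase, fell by 1.13 ± 0.17 in females and 1.22 ± 0.18 in males, zyxin (Zyx) by 1.01 ± 0.17 and 1.22 ± 0.19, and Csrp1 by 1.21 ± 0.17 and 0.98 ± 0.18. Talin 1, vinculin, kindlin 2 (Fermt2) and integrin-linked kinase (Ilk) fell in both sexes. The kinase Pak1 rose by 1.18 ± 0.19 and 1.21 ± 0.20, Tns3 by 1.18 ± 0.19 and 0.56 ± 0.20, and Parvb by 0.41 ± 0.14 and 0.80 ± 0.15. The 10 smooth muscle markers fell in the same comparisons, and their part in the falls of these genes was not tested. In FeNonAD 3 rose and 6 fell, where 6.87% of all genes rose and 7.66% fell. In MaNonAD 0 of 38 passed by edgeR, where 0.624% of all genes were called.

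**Figure D5:**
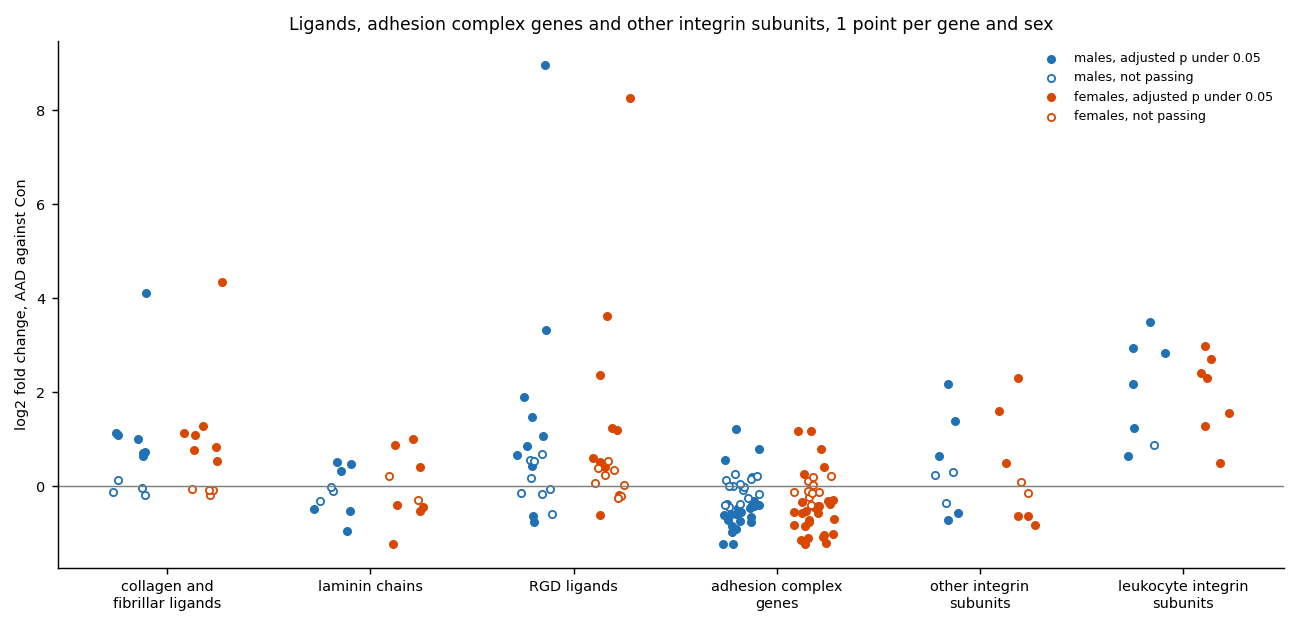
Log2 fold change in AAD against controls of the same sex for each tested gene of 6 lists, filled where the adjusted p was under 0.05. Collagens that passed rose, adhesion complex genes that passed mostly fell, and the leukocyte subunits that passed rose.

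Integrin subunits outside the 10 moved too. Of 8 other subunits tested, 3 rose in both sexes: Itgb7 (2.30 ± 0.32 in females and 2.17 ± 0.33 in males), the laminin receptor subunit Itga6 (1.60 ± 0.25 and 1.39 ± 0.26) and Itga4 (0.50 ± 0.16 and 0.65 ± 0.17). Itga9 fell by 0.83 ± 0.17 and 0.73 ± 0.18, and the collagen receptor subunit Itga10 fell by 0.63 ± 0.16 and 0.56 ± 0.17. Itga3 fell in FeAAD by 0.63 ± 0.14, and in MaAAD it differed by -0.35 ± 0.15 (adjusted p = 0.064). Among 7 leukocyte subunits, of which Itga4 and Itgb7 are also among the 8, 7 rose in FeAAD and 6 in MaAAD, Itgam by 2.70 ± 0.40 and 3.51 ± 0.43. All 10 macrophage markers, of which Itgam and Itgb2 are also among the leukocyte subunits, rose in both sexes, with a summed level of 186 to 523 CPM over both control groups, 573 to 5685 CPM in FeAAD and 766 to 3691 CPM in MaAAD.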

How the data were processed

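RNA was extracted with a column kit from snap-frozen thoracic aorta and made into strand-specific mRNA libraries that were sequenced on a DNA NanoBall platform. The submitters' processing notes name Bowtie2, RSEM 1.3.1 and GRCm39. The authors deposited expected counts per gene, not scaled to library size, with 1 column per mouse, whose name gave its group. Of all values 4.99% were not whole, of the members' values 0, and all were rounded. The table holds no coordinates, so positions, strands and transcript lengths were matched by symbol in GENCODE M21 (GRCm38). Itga1 overlaps Pelo and Gm49395 on its strand there, and reads in the overlap may be split among them.

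Differences were tested with edgeR 4.0.16 in R 4.3.3 (filterByExpr, TMM with factors from 0.874 to 1.08, robust quasi-likelihood fit with 1 mean for each of 6 groups) in 9 pairwise comparisons and 3 interactions, adjusted over 14431 genes. Results were recomputed with DESeq2 1.42.0, with DESeq2 size factors in edgeR, and with unrounded counts, no filter on low counts, no robust estimation, a replicate block, a fit of 2 groups alone, mean transcript lengths and leaving out each library. Standard errors are from the log2 fold change and F. p-values measure the spread between mice. By the paper, the sexes were housed apart and each treatment group was spread over a few cages. The labels do not name the cage, so effects of cage were not modelled. They cannot be told apart from those of sex or treatment. Low counts carry counting error, and a library holds 13548003 to 17281262 counts. The lists of ligands, adhesion complex genes and markers, like the members, were chosen with earlier results of these data known. All members are named, and of the other lists the 3 largest rises and falls that passed between AAD and Con in both sexes with at least 10 counts on average, plus Talin 1, vinculin, Fermt2, Ilk, Itga3, Lum, Clec3b and Scara5, which were named after their values were seen. Likeness was measured after log2 of CPM plus a pseudocount of 1. Motifs were searched in the 250 bases before each start. A few genes that these rules name are not reported here. Replicate numbers did not pair the mice. Figures were drawn with matplotlib 3.10.9.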

Additional observations from a re-analysis of the deposited data

Results flagged for a closer look

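Of 60 pairs of a member and a group, 7 held a library whose gap to the nearest other was above Dixon's 95% limit, and chance flags about 1 in 20. Itga11 was flagged in both NonAD groups, at 60.8 CPM in MaNonAD1 (next 20.8) and 57.2 CPM in FeNonAD8 (next 26.5). These are also the libraries with the highest Itga2 of their groups, which for FeNonAD8 was flagged too (4.78 CPM, next 2.48). MaNonAD1 and FeNonAD8 had the highest summed macrophage markers of their groups (704 and 820.4 CPM) and the highest summed fibroblast markers (4891 and 6043 CPM), and MaNonAD1 had the lowest smooth muscle markers (23445 CPM). Their part in the levels of Itga11 and Itga2 was not tested.

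In AAD, Itga5 was highest in FeAAD9 (1704 CPM, next 988 CPM), and Itgav was lowest in FeAAD8 (79.9 CPM, next 105). Itga1 was highest of MaNonAD in MaNonAD4 (52.8 CPM, next 35.2), and Itga7 was highest of FeNonAD in FeNonAD7 (581 CPM, next 417). None of the 30 tests of a difference between the sexes passed.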

How the results depend on the processing

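No called member changed its direction. With a log2 fold change of at least 1 also required, 2 members passed in FeAAD and 2 in MaAAD against controls, and 0 in MaCon against FeCon. In FeNonAD against FeCon, 0 passed with no filter on low counts and 2 in a fit of those groups alone, which added Itga11 (0.86, adjusted p = 0.018). In FeAAD against FeNonAD 1 passed in a fit of those groups alone, and 2 with no filter on low counts, which lost Itga11 (1.21, adjusted p = 0.064). In MaAAD against MaNonAD 1 (Itga2) passed by DESeq2, without the 3 libraries highest in platelet markers and without the 2 lowest in smooth muscle markers. The settings without the marker-extreme libraries were chosen after seeing the data. Without either set, Itgav in both sexes and Itga1 and Itga7 in MaAAD still passed. The call of Itga5 in FeAAD was lost in a fit of FeAAD and FeCon alone (adjusted p = 0.092) and without the libraries lowest in smooth muscle markers (0.057), and without those Itgb3 in MaAAD was lost too (-0.40, 0.081). DESeq2 size factors, unrounded counts and a fit that was not robust changed no call. With the replicate block, every count was within 1.5 times of the one without it. Itga7 in FeAAD passed (0.046), and Itgb3 in MaAAD (0.060) and Itga11 in FeAAD against FeNonAD (0.11) did not. The correlation of same-numbered mice was over 0.1 for some pairs only (0 of 9 in FeAAD against FeCon, 1 of 7 in MaAAD against MaCon, 3 of 8 in FeNonAD against FeCon and in FeAAD against FeNonAD), with a range over the 9 comparisons of -0.53 to 0.47.

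Leaving out each of 48 libraries gave 0 to 1 members passing in FeNonAD against FeCon, 4 to 7 in FeAAD and 6 to 7 in MaAAD against controls, 1 to 4 in FeAAD against FeNonAD and 0 to 1 in MaAAD against MaNonAD. The call of Itga2 in FeNonAD was lost without MaCon7, MaAAD4, MaAAD5, MaAAD6, FeCon1, FeCon3, FeCon4, FeCon5, FeCon6, FeCon8, FeNonAD3, FeNonAD4, FeNonAD5, FeNonAD6 or FeNonAD8 (adjusted p of 0.050 to 0.16). Itga7 in FeAAD passed without MaCon1, MaCon2, MaNonAD1, MaAAD2, FeCon8, FeCon10, FeNonAD7, FeAAD3, FeAAD8 or FeAAD9 (0.019 to 0.0496). Itga7 in FeAAD against FeNonAD passed without FeAAD8 (-0.37, 0.037). Itga11 in FeAAD against FeNonAD was lost without MaCon1, MaCon3, MaCon5, MaCon6, MaCon7, MaCon9, MaCon10, MaNonAD3, MaAAD5, FeCon1, FeCon5, FeCon6, FeCon7, FeCon9, FeCon10, any of FeNonAD1 to FeNonAD7, FeAAD1, FeAAD4, FeAAD6 or FeAAD7 (0.050 to 0.12).

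With the mean transcript length in place of the longest, 6 of 10 members kept their rank, Itga8 above Itgb1 and Itgav above Itgb3. The mean share of Itga8 was then 66.4% for MaCon mice, 61.8% for MaNonAD, 55.0% for MaAAD, 62.5% for FeCon, 66.3% for FeNonAD and 56.5% for FeAAD. With the longest transcript, the MaNonAD share of 50.9% became 49.4% to 52.0% when 1 of its libraries was left out. The low counts of Itga2 in controls limit the precision of its fold changes, and the 4 MaNonAD mice that of each comparison with them.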
